A study of Homo sapiens with 6 samples.

Results

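The peaks described here are those of SATB1 after Aβ1–42 treatment whose DNA sequence matched an Alu element. They were chosen by sequence alone. The 287 nt Alu copy in an intron of APP was searched in the hg38 sequence of each peak with blastn at an e-value of 1e-05 on either strand. Of the 6055 peaks in the list, 4495 matched and 1560 did not. The 4 peak lists of the series held 23953 peaks in all. The cells were SH-SY5Y, a human neuroblastoma line, all stably expressing 82-kDa ChAT, the nuclear form of choline acetyltransferase, and all differentiated with retinoic acid for 3 days. They received vehicle or 100 nM oligomeric Aβ1–42 for 4 h. Chromatin was precipitated with an antibody to SATB1 or to ChAT and sequenced, with an input sample for each treatment. Each treatment drew on 3 plates of cells, and each protein had 1 library per treatment. There was thus no replicate error, no test between treatments was made, and the intervals given are 95% intervals for counting error over the peaks of 1 library. The depth of the libraries is unknown from the peak lists, which also hold no expression values against which the cell type could be checked. Each peak has a MACS score, 10 times the negative log10 of its p-value, which ranks peaks within a list only.

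Alu elements are short primate repeats that were copied into the genome through an RNA made by RNA polymerase III. An Alu has a left and a right arm of related sequence, joined by an A-rich linker and closed by an A-rich tail. The left arm carries the A box and the B box of the polymerase III promoter. SATB1 anchors chromatin at AT-rich matrix attachment regions, where it binds stretches of A and T in which C or G lies on 1 strand. Alu subfamilies differ in age, with AluJ the oldest, then AluS, then AluY.

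The matches lay mainly in the middle of Alu. Positions are counted from 1 at the 5′ end of the Alu copy, in which the letters GGCTCACGC of the A box stand at 13 to 21, the letters GTTCGAGAC of the B box at 76 to 84, and the linker letters AAAAATACA at 120 to 128. To describe what Alu sequence alone gives, regions with the lengths of the peaks were placed on a regular grid, every 2000 nt, over chromosomes 1 to 22, X and Y. The grid stands in for random placement, and 151510 of its 1468771 regions matched the Alu copy by the same rule. On the same chromosomes lay 4380 of the Alu-matching SATB1 peaks, and all comparisons with the grid use these. The coverage of Alu by the peaks was highest at position 122, which the matches of 67.6% of the peaks covered. In the grid regions the highest coverage was 41.5%, at position 173. At position 1 the order was the opposite, with 5.02% of the peaks and 12.5% of the grid regions. All of the linker letters lay within the match for 65.5% of the peaks and 35.9% of the grid regions. The B box letters lay within it for 44% and 37.8%, and the A box letters for 13.7% and 27.0%. Only 11.8% of the matches spanned both boxes, against 17.3% in the grid. These shares also depend on how much of a region lay in Alu at all. Regions with at least 80% of their length aligned were compared separately. The linker letters lay within the match for 75.3% of these peaks and 58.9% of these grid regions. The B box shares were nearly equal, at 46.9% and 46.2%, and the A box shares were 10.9% and 16.4%. The highest coverage was 77.5% at position 123 and 64.1% at position 167.

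**Figure D1:**
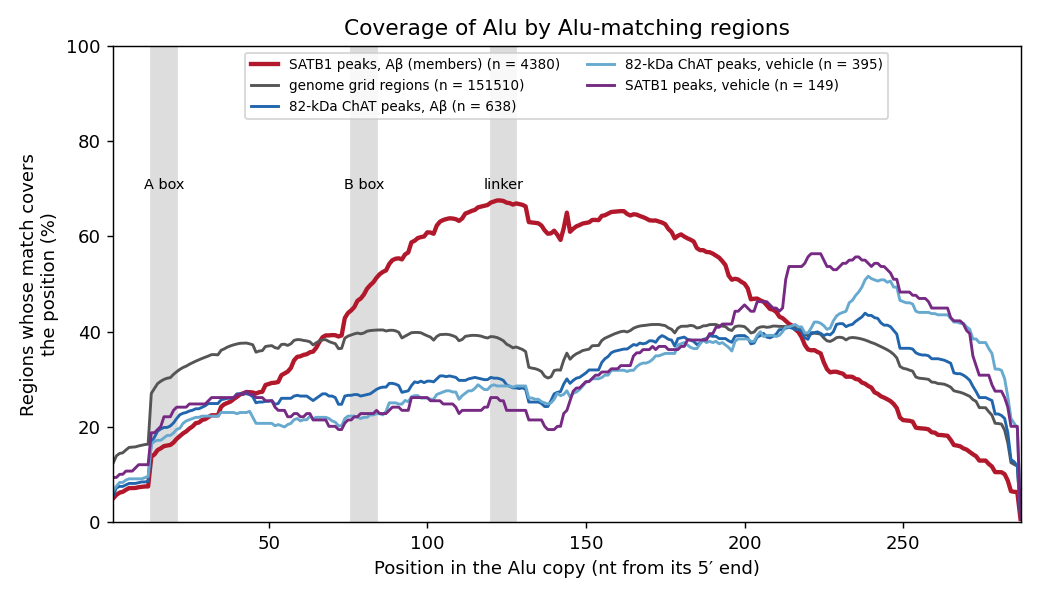
Share of Alu-matching regions (y axis, %) whose match covers each position of the Alu copy (x axis, nt from its 5′ end), as 1 line per peak list and 1 for the genome grid, with grey bands at the A box, B box and linker letters. The line of the Alu-matching SATB1 peaks after Aβ rises to 67.6% at position 122, where the grid regions and the other 3 lists lie lower.

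The midpoints of the peaks were narrowly spread. Their median was 142 and their quartiles were 103 and 183, whereas those of the grid regions had a median of 140.5 and quartiles of 62.5 and 217. The middle of the distribution was thus shared and its width was not. Within 20 nt of the linker centre, at position 124, lay the midpoints of 26.4% of the peaks (interval 25.1 to 27.7) and 12.8% of the grid regions (12.6 to 12.9). The difference was 13.6 percentage points (12.4 to 15). The fullest bins of 20 nt were those from 120 to 140, with 14.4% of the peaks, and from 140 to 160, with 15.3%. Each held 6.40% or 6.32% of the grid regions.

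**Figure D2:**
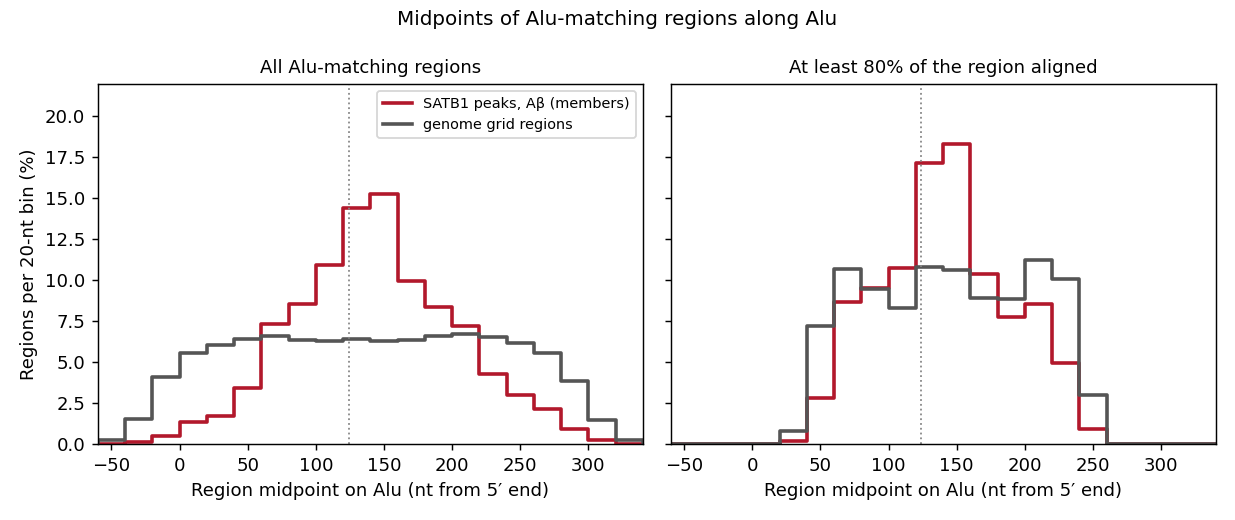
Midpoints of Alu-matching regions on Alu (x axis, nt from the 5′ end of the Alu copy) as the share of regions per 20 nt bin (y axis, %), for all regions on the left and for those with at least 80% of their length aligned on the right, with a dotted line at the linker centre. The SATB1 peaks after Aβ are fullest from 120 to 160, while the grid regions on the left stay near 6.3% across the middle of Alu.

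The peaks lay inside Alu more than the grid regions did. At least 80% of the length was aligned to the Alu copy in 80.9% of the peaks (79.7 to 82.0) and 49.7% of the grid regions (49.5 to 49.97). The peaks reached past the 5′ end of the matched stretch of Alu in 12.3% of cases and past its 3′ end in 11.8%, against 32.0% and 28.5% in the grid. For either end together the difference was -34.3 percentage points (-35.6 to -33.01), and -15.2 among regions with at least 80% aligned. The Alu around the peak was complete, from position 20 or before to position 260 or beyond, for 89.6% of the peaks (88.7 to 90.5) and 79.3% of the grid regions (79.1 to 79.5). Regions that lie wholly inside Alu must have their midpoints away from its ends. Among those with at least 80% aligned, 29.7% of the peaks (28.2 to 31.2) and 19.95% of the grid regions (19.7 to 20.2) had their midpoint within 20 nt of the linker centre.

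The Alu-matching peaks of the other lists were not gathered near the linker. For 82-kDa ChAT there were 646 among 6563 peaks after Aβ1–42 (9.84%) and 405 among 8270 after vehicle (4.90%). For SATB1 after vehicle there were 158 among 3065 (5.15%). The share that matched Alu was 10.3% in the grid and 74.2% in the SATB1 list after Aβ1–42. In the other lists the coverage of Alu was highest in the right arm, at positions 238, 239 and 221. The median midpoints were 171, 185 and 190. Midpoints within 20 nt of the linker centre made up 12.7% (10.2 to 15.5), 8.40% (5.85 to 11.6) and 6.04% (2.80 to 11.2), in the same order. All 3 intervals lay below that of the SATB1 peaks after Aβ1–42. The share of the grid regions, 12.8%, lay inside the interval of the ChAT list after Aβ1–42 and above those of the vehicle lists. At position 238 the coverage was 43.9% for the ChAT list after Aβ1–42 and 38.3% for the grid.

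The linker letters were also better kept. The letters AAAAATACA, searched in the direction of Alu, were present in 56.2% of the peaks (54.7 to 57.6) and 23.2% of the grid regions (22.2 to 24.2). Sequence content was read in every 20th grid region, which gave 7576 regions. Where the match covered the linker, the letters were intact in 84.6% of the peaks (83.2 to 85.9) and 60.9% of the grid regions (59.0 to 62.7). Where it covered the A box, those letters were intact in 44.2% (40.2 to 48.3) and 28.8% (26.8 to 30.8). For the B box the shares were 21.5% (19.7 to 23.4) and 19.1% (17.7 to 20.6), and these intervals overlapped. Intact here means exactly the letters of the Alu copy that was searched. Letters that differ between subfamilies were therefore not told apart from letters lost, and the B box shares do not show how well it was kept. A run of 3 to 6 A or T, then C, then at least 3 A or T contains part of the linker letters. On either strand, 71.9% of the peaks and 65.2% of the grid regions held it. With its C within 15 nt of the linker centre it occurred in 61.1% of the peaks (59.6 to 62.5) and 30.9% of the grid regions (29.9 to 32.0). In the last 20 nt of Alu or beyond, toward the A-rich tail, it occurred in 7.44% of the peaks (6.68 to 8.26) and 18.3% of the grid regions (17.5 to 19.2). Both of these shares depend on whether a region reaches that part of Alu. Regions with at least 80% of their length aligned were compared separately. Near the linker the run then occurred in 69.1% of the peaks (67.5 to 70.6) and 46.7% of the grid regions (45.1 to 48.3). Toward the tail it occurred in 3.56% (2.97 to 4.22) and 7.52% (6.70 to 8.40). Such a run is a match of letters and not a measured SATB1 site.

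The Alu copies under the peaks were less diverged than those of the grid. The reference was the majority base of the grid regions at each position of Alu. The peaks differed from it at a median of 7.56% of aligned positions (quartiles 6.06 and 9.09) and the grid regions at 10.5% (8.20 and 13.7). With the 2 positions of every CpG site of Alu left out, the medians were 4.39% and 6.86%. CpG sites mutate fast in Alu, since methylated C is lost to T. Here a CpG site was a pair of positions with CG in at least 20% of the grid regions, and 40.3% of such pairs were still CG in the peaks, against 28% in the grid. The medians were 9.84% diverged positions in the Alu-matching ChAT peaks after vehicle, 9.64% in those after Aβ1–42 and 10.1% in the SATB1 peaks after vehicle.

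The subfamilies of Alu were read from a letter difference. In the right arm AluY has AATGGCGTG where AluS has AATCGCTTG, and both were searched in the direction of Alu after the sequences of the peaks had been seen. The AluY form occurred in 612 of the 4380 peaks (14.0%) and the AluS form in 484 (11.1%), and 1 peak held both. In the grid the order was the opposite, with 217 regions of 7576 (2.86%) for the AluY form and 444 (5.86%) for the AluS form. Of the regions with either form, the AluY form was present in 55.9% of the peaks (52.9 to 58.9) and 32.8% of the grid regions (29.3 to 36.6). In the Alu-matching ChAT peaks after Aβ1–42 it was 20.6% (11.5 to 32.7), from 13 peaks with the AluY form. In those after vehicle it was 32.6% (19.5 to 48.0), from 15 peaks, near the grid value. In the SATB1 peaks after vehicle it was 16.7% (2.09 to 48.4), from 2 peaks.

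The sequences of the peaks occurred at many places in the genome. Each peak was cut into all its overlapping stretches of 51 nt, about the length of a read, and each stretch was counted on both strands of chromosomes 1 to 22, X and Y. The median peak had 28.6% of its 51-mers at 1 place only (quartiles 1.47 and 55.7), while the median Alu-matching grid region had 89.0% (62.2 and 100). Not a single 51-mer was unique in 1052 of the peaks (24.02%), in 4.41% of the grid regions, in 7.68% of the Alu-matching ChAT peaks after Aβ1–42 and in 10.7% of the Alu-matching SATB1 peaks after vehicle. The SATB1 peaks after Aβ1–42 without an Alu match had no unique 51-mer in 313 of 1477 cases (21.2%), close to the share of the Alu-matching peaks. All 51-mers were unique in 97 of the peaks (2.21%) and in 32.9% of the grid regions. Regions with at least 80% aligned gave medians of 22.99% for the peaks and 78.2% for the grid. The median of the ChAT list after Aβ1–42 was 84.1%, that of the ChAT list after vehicle 84.5%, that of the SATB1 list after vehicle 75%, and that of the SATB1 peaks after Aβ1–42 without an Alu match 100%. The most repeated 51-mer of a peak had a median of 770 copies, and that of a grid region a median of 6. The methods of the study state mapping with repeat-masking, while most peaks of this list lie in a repeat, and the peak lists do not resolve this conflict. The reads were not analysed here, and how reads with several possible places were handled was not tested.

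**Figure D3:**
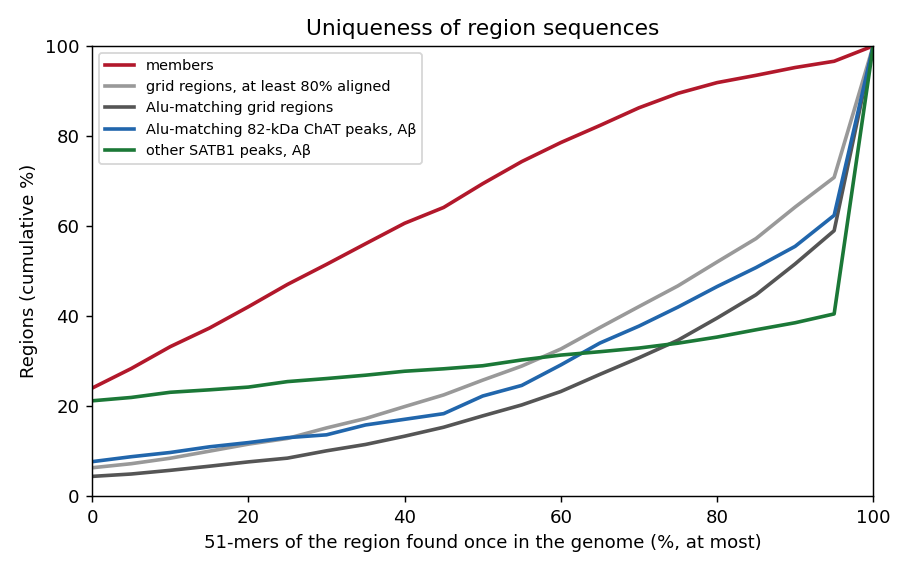
Cumulative share of regions (y axis, %) against the share of a region's 51-mers that occur once on chromosomes 1 to 22, X and Y (x axis, %), as 1 line per set of regions. The line of the Alu-matching SATB1 peaks after Aβ starts at 24.02% and lies above the others at every value up to 95%, whereas the grid regions start at 4.41%.

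Of the peaks, 3443 (78.6%) shared at least 1 51-mer with another of them, although only 4 had exactly the sequence of another.

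The orientation of the Alu copies to genes did not differ from that of Alu in the grid by more than counting error. Alu copies in genes lie more often antisense than sense, and so did the peaks. Where all genes at a peak lay on 1 strand, the Alu was sense to the gene in 1187 of 2596 peaks (45.7%, 43.8 to 47.7) and in 44.9% of the grid regions (44.5 to 45.2). The difference was 0.871 percentage points (-1.06 to 2.82). In protein-coding genes the share was 45.4% against 44.7%, and in lncRNA genes 47.4% against 47.2%. In exons 55 of 103 peaks (53.4%, 43.3 to 63.3) were sense, against 46.2% of the grid regions (44.7 to 47.8), and the interval of the peaks included the grid value. Alu copies lay on the forward strand of the genome in 50.2% of the peaks (48.7 to 51.7).

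For most gene classes the peaks differed from the grid regions by less than counting error. Outside all genes lay 35.7% of the peaks (34.3 to 37.1) and 35.1% of the grid regions. Introns held 62.6% (61.1 to 64) and 63.1%, protein-coding genes 51.4% (49.9 to 52.9) and 52.2%, and lncRNA genes 15.2% (14.2 to 16.3) and 15.2%. The 2000 nt upstream of a transcription start held 9.41% (8.56 to 10.3) and 9.60%. Pseudogenes held 1.71% (1.35 to 2.14) and 1.87%. Exons held 124 peaks (2.83%, 2.36 to 3.37) and 3.43% of the grid regions, which was the 1 class whose difference, -0.600 percentage points (-1.06 to -0.0581), did not include 0. It did include 0 when only protein-coding genes were used (-0.224), when the midpoint of a region was used (-0.319), and when only the higher-scored peaks, from the median score up, were used (-0.575).

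**Figure D4:**
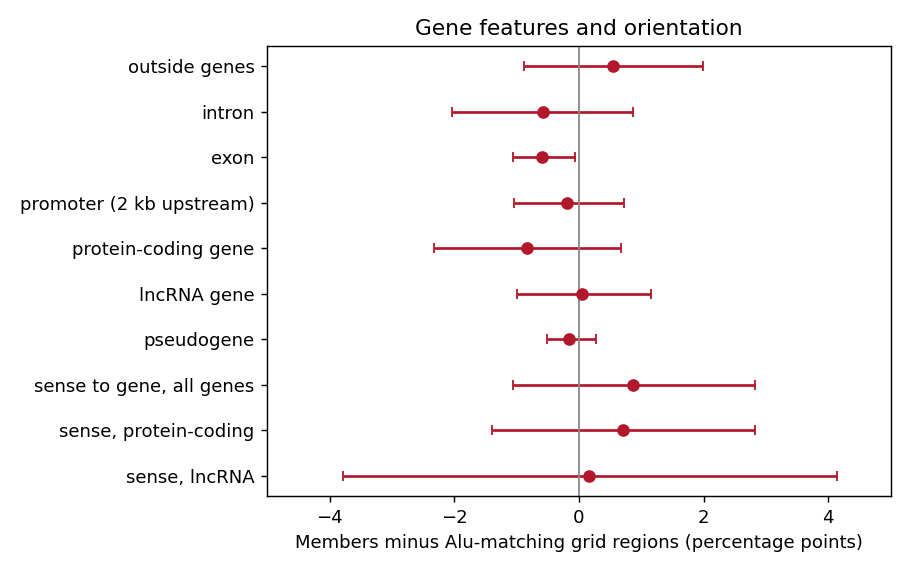
Share of the Alu-matching SATB1 peaks after Aβ minus that of the Alu-matching grid regions (x axis, percentage points) for each gene feature and for Alu lying sense to the gene, with Newcombe 95% intervals as bars. Exon is the only feature whose interval excludes 0, at -0.600 percentage points.

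The peaks were spread over many genes. Of 20046 protein-coding genes, 2028 held at least 1 of them (10.1%). Of these, 1719 held 1, 248 held 2 and 61 held 3 or more. The median length of the genes with a peak was 99.1 kb and that of the genes without was 23.5 kb. Of 18866 lncRNA genes, 638 held at least 1 (3.38%).

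The gene with most peaks was CNTNAP2, which encodes a neurexin-like cell adhesion protein of neurons and spans 2305 kb of chromosome 7. It held 11, where the Alu content of the gene in the grid gave 2.49, a ratio of 4.42 (2.21 to 7.92). Of the 11, 6 were sense and 5 antisense, and they lay in introns 1, 4, 8, 11, 14, 15 and 16. Their scores ran from 56.56 to 105.04, and 9 of the 11 midpoints lay from position 86.8 to position 199 of Alu. MACROD2, which encodes a hydrolase of ADP-ribose marks, held 5 (ratio 2.4, 0.780 to 5.61). Each of AOPEP, DST, ELMO1, JAK1, MYO1D, NUP210L, RABGAP1L and SLC39A11 held 4. Among them JAK1, a tyrosine kinase of cytokine signalling, had a ratio of 7.28 (1.98 to 18.6), and DST, a linker of the cytoskeleton, 5.12 (1.40 to 13.1). The intervals included 1 for NUP210L (3.55, 0.967 to 9.08), RABGAP1L (2.82, 0.769 to 7.23) and SLC39A11 (3.22, 0.877 to 8.24). Those of the other genes with 4 lay above 1. The 4 Alu copies in MYO1D, an unconventional myosin, were all sense, and the 4 in NUP210L were all antisense. These genes were chosen for their counts, so the ratios are a description.

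The lncRNA genes with most peaks were LINC02934 with 5 and CASC15, ENSG00000287001 and ENSG00000289084 with 4 each, followed by DLEU1 with 3. Per length, the densest protein-coding genes with at least 3 were SP2 with 9.14 peaks per 100 kb, AGBL2 with 5.38, SLC7A7 with 5.30, TMC7 with 3.75 and NUP155 with 3.62. SP2 encodes a zinc finger transcription factor, and its 3 peaks all lay in intron 1. MAGI2, a scaffold protein of synapses, held 2, both antisense, in introns 10 and 15. GAB2, an adaptor of receptor signalling, held 0, where 0.549 came from the grid.

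For 11 of the 12 gene families the interval of the ratio to the grid included 1, with wide intervals for the smaller families. Beside the 10.1% of all protein-coding genes, at least 1 peak was held by 51 of 515 ZNF genes (9.90%, 7.46 to 12.8), 45 of 386 solute carrier genes (11.7%, 8.63 to 15.3), 10 of 96 potassium channel genes (10.4%, 5.11 to 18.3) and 15 of 201 TRIM, USP and UBE genes (7.46%, 4.24 to 12.0), with a ratio to the grid of 0.628 (0.359 to 1.02) for the last. In the ZNF genes lay 52 peaks, where the grid gave 50.04, a ratio of 1.04 (0.776 to 1.36). Genes of glutamate and GABA receptors, which are long, held a peak in 11 of 47 cases (23.4%, 12.3 to 38.0), with a ratio to the grid of 1.13 (0.584 to 1.98). Calcium and sodium channel genes held one in 6 of 40 cases (15%, 5.71 to 29.8), with a ratio of 0.653 (0.240 to 1.42). Cadherin and protocadherin genes held one in 38 of 89 cases, but with only 9 distinct peaks, because protocadherin genes of a cluster overlap. The ratio there was 0.711 (0.325 to 1.35). Neurexin, neuroligin and contactin genes held one in 8 of 21 cases (38.1%, 18.1 to 61.6), and their 19 peaks gave a ratio of 1.75 (1.06 to 2.74). CNTNAP2, already named for its count, gave 11 of the 19. The grid gave 2.49 for CNTNAP2 and 10.8 for the whole family, so the ratio above 1 came mainly from this gene. Histone genes, short and poor in Alu, held 0 of 89, ribosomal protein genes 3 of 100, olfactory receptor genes 3 of 416 and keratin genes 1 of 152. Each of these 4 families held 3 peaks or fewer.

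The spread over chromosomes differed from that of the grid. Chromosome 7 held 352 of the peaks, 1.36 times (1.22 to 1.51) the number its Alu-matching grid regions gave. Chromosome 17 held 265, a ratio of 1.23 (1.09 to 1.39), and chromosome 1 held 452, a ratio of 1.17 (1.07 to 1.28). The ratios were below 1, with an interval that did not include it, for chromosomes 14 (0.716), 16 (0.757), 8 (0.777), 10 (0.794), 15 (0.819) and Y (0.452). The other 15 chromosomes had intervals that included 1. To match the grid, 5.92% of the peaks would have had to lie on another chromosome.

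The values on chromosomes 1, 7 and 17 were higher among the lower-scored peaks. Below the list's median score of 66.43, the ratio was 1.69 (1.47 to 1.94) for chromosome 7, 1.47 (1.24 to 1.72) for chromosome 17 and 1.28 (1.13 to 1.46) for chromosome 1. At or above it, the ratios were 1.05 (0.880 to 1.23), 1.008 (0.831 to 1.21) and 1.07 (0.928 to 1.22). The intervals below and above the median did not overlap for chromosomes 7 and 17, and overlapped for chromosome 1. Chromosome 14 had ratios of 0.538 (0.375 to 0.748) below and 0.881 (0.675 to 1.13) above, which overlapped. For chromosome 16 the values were 0.766 below and 0.749 above. Chromosome 4 had the opposite order to chromosome 7, with 0.806 (0.638 to 1.004) below and 1.30 (1.09 to 1.54) above, which did not overlap. It was the only chromosome whose ratio lay above 1 with its interval among the higher-scored peaks.

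**Figure D5:**
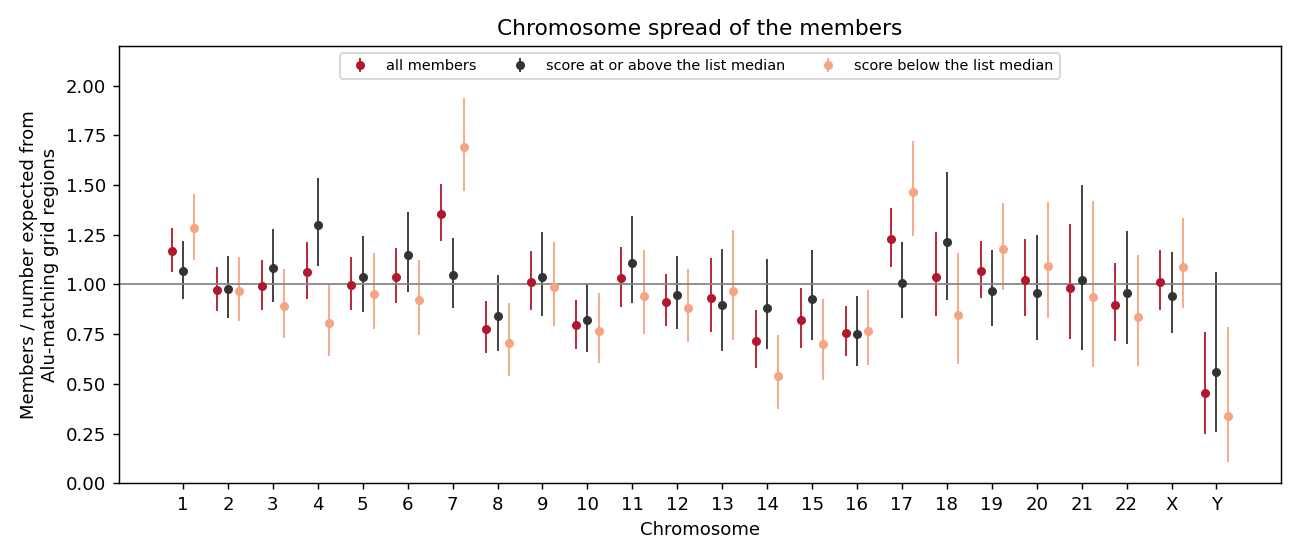
Number of Alu-matching SATB1 peaks after Aβ over the number that the Alu-matching grid regions give (y axis, ratio) for each chromosome (x axis), for all peaks and for those at or above and below the median score of the list, with exact Poisson 95% intervals as bars. Chromosome 7 stands at 1.36 for all peaks, at 1.69 below the median score and at 1.05 at or above it.

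Chromosomes 1, 7 and 17 were then each split close to the centromere. On chromosome 1, split at 120 Mb, the ratio was 0.965 (0.839 to 1.11) before the split and 1.43 (1.26 to 1.62) after it. On chromosome 17, split at 25 Mb, it was 1.08 (0.839 to 1.37) before and 1.29 (1.12 to 1.48) after. On chromosome 7, split at 60 Mb, it was 1.31 (1.08 to 1.57) and 1.38 (1.21 to 1.57). Peaks that did not match Alu were also more frequent there. Against all grid regions, the SATB1 peaks after Aβ1–42 without an Alu match had a ratio of 2.05 (1.69 to 2.46) on the long arm of chromosome 1, 1.51 (1.09 to 2.02) on that of chromosome 17, and 1.59 and 1.61 on the arms of chromosome 7. On the short arm of chromosome 17 their ratio was 2.17 (1.43 to 3.15), where that of the Alu-matching peaks was 1.08. The Alu-matching peaks of 82-kDa ChAT after Aβ1–42 had ratios of 1.58 (1.12 to 2.16) on the long arm of chromosome 1, 1.30 (0.873 to 1.87) on that of chromosome 17 and 1.79 (1.31 to 2.4) on that of chromosome 7. The Alu-matching peaks of SATB1 after vehicle had ratios of 0.347 (0.0420 to 1.25), 1.73 (0.792 to 3.29) and 2.39 (1.30 to 4.005) there, from 2, 9 and 14 peaks. The part that the number of DNA copies in these cells had in these values was not tested.

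Density of Alu along the chromosomes made less difference. Windows of 1 Mb were ranked by their number of Alu-matching grid regions and divided into 5 classes with about the same number of grid regions each. The ratio of peaks to grid was 1.09 (1.02 to 1.16) in the class poorest in Alu, 0.942, 0.983 and 0.966 in the next 3, and 1.02 (0.953 to 1.09) in the richest. The peaks per Mb therefore went from 0.747 to 4.18 with Alu itself. Neighbouring peaks on a chromosome lay at a median distance of 340 kb (339970 nt), and 24 of 4356 distances were under 1 kb. Of these 24 pairs of neighbours, 18 had their Alu copies on the same strand, against 48 of 112 pairs at 1 to 10 kb. The shortest distance was 6 nt, so close neighbours may lie in the same Alu copy and then share its strand. Such pairs were not separated, and no such share was taken from the grid.

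Length and score of the peaks were narrowly distributed. The median length was 136 nt (quartiles 119 and 148), and for the other peaks of the list it was 126 nt (98 and 149). Of the 1619 peaks of the list from 140 nt to under 160 nt, 85.7% matched Alu (83.9 to 87.4), against 49.0% (45.4 to 52.5) of the 780 under 100 nt and 9.30% (4.10 to 17.5) of the 86 of 400 nt or more. The median score was 66.64 (61.60 and 73.22), with 65.30 (56.93 and 74.44) for the other peaks. The highest score of an Alu-matching peak was 155.03, whereas the other peaks reached 349.67. Of the 100 highest-scored peaks of the list, 36 matched Alu (26.6 to 46.2), and of the 1512 with a score under 60.34 63.2% did (60.7 to 65.6). From 60.34 to under 66.43 it was 80.3%, and from there to under 73.54 it was 81.2%. Among the matching peaks, score made little difference to the part of Alu covered, with 27.2% (25.4 to 29.1) of midpoints near the linker at or above the median score and 25.6% (23.7 to 27.5) below it.

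Few of the peaks were in another list. At least 1 nt was shared with a peak of 82-kDa ChAT after Aβ1–42 by 28 of the 4495 (0.623%, 0.414 to 0.899), with one of 82-kDa ChAT after vehicle by 10 (0.222%, 0.107 to 0.409) and with one of SATB1 after vehicle by 4 (0.0890%, 0.0243 to 0.228). The peaks of the same list without an Alu match overlapped these lists in 13.5% (11.9 to 15.3), 10.6% (9.15 to 12.3) and 3.27% (2.44 to 4.28). Taken from the other side, 25 of the 646 Alu-matching ChAT peaks after Aβ1–42 (3.87%) overlapped an Alu-matching SATB1 peak of that treatment. In all, 35 of the peaks overlapped some other list and 2 overlapped all 3.

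An e-value of 1e-03 gave 4504 matching peaks in place of 4495, and one of 1e-10 gave 4396. The weakest matches inside it had an e-value of 8.91e-06 with aligned stretches of 39 to 58 nt at 77.6 to 87.2% identity. The next matches outside had 0.000109, with stretches of 25 to 54 nt. A further peak of 83 nt had a match of 48 nt at 7.31e-07 that the search found only with its limit set to 10. A match on both strands was found in 9 peaks, and 115 of the 4495 lay on other sequences of the assembly.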

How the data were processed

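Chromatin immunoprecipitation followed by sequencing gave 1 peak list per protein and treatment. According to the study's methods, the authors aligned reads to hg38 by BWA under repeat-masking with settings left at default, ran MACS with a p-value limit of 1e-05, and took out peaks that the input also had. The deposited score is 10 times the negative log10 of that p-value, and at least 50.01 in this list. Library depth and reads were not analysed here. How multiply mapped reads were treated beyond that is not given in the sources used here.

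Peaks were searched with blastn 2.17.0 (e-value 1e-05, database size 1000000). Grid regions with undetermined bases, 75375 in number, were left out. The Alu around a region was aligned with 400 nt on each side, and genes came from GENCODE 44 by bedtools 2.31.1. Because the arms of Alu are related, the best match decides the position. Scripts ran under Python 3.11.15, with scipy 1.17.1 for intervals, pysam 0.24.0 for sequences, numba 0.67.0 for counting 51-mers and matplotlib 3.10.9 for figures. Intervals are exact Clopper-Pearson for shares, Newcombe for differences and exact Poisson for ratios, at 95%, without correction for the number of comparisons. The search and the chromosome intervals were tested on simulated data. The annotation was run on regions taken from exons and introns of the same gene set, which checks the code only. The genes named are the 10 protein-coding and 5 lncRNA genes with most peaks, the 5 densest, GAB2, MAGI2 and members of the 12 families. The peaks and lists were chosen with earlier results of these data known. Alternatives covered the e-value, score, grid, genes, promoter length and overlap. Peak sequences are not reported here.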

Additional observations from a re-analysis of the deposited data

How the results depend on the processing

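Of 96 values recomputed under alternatives, 77 kept their call, meaning that a count stayed within 1.5 times, a median within its interval, and a difference or ratio on the same side of the test of whether its interval includes 0 or 1. Of these, 5 crossed 0 with intervals that included it: the sense share (-2.90 percentage points among regions with at least 50% unique 51-mers), the intergenic and intron shares (-0.516 and 0.447 with scores from the median up) and the promoter share (0.142 for protein-coding genes, 0.478 among regions with at least 50% unique 51-mers). With only scores from the median up there were 2345 Alu-matching peaks in the whole list, chromosome 4 above its grid value and chromosome 16 below it (1 each), a median of 25.7% of unique 51-mers and a median distance of 714274 nt between neighbours. With both lists held to scores from their own median up, overlaps with the ChAT peaks fell to 5 (vehicle) and 9 (Aβ1–42). In exons the difference from the grid was -0.224 percentage points for protein-coding genes, -0.319 by midpoint, -0.575 at or above the median score and -0.611 among regions with at least 50% unique 51-mers. That setting, chosen after seeing the data, left 1368 peaks and 3 chromosomes below the grid. Regions with at least 80% aligned had 22.99% unique 51-mers. Keeping only scores from the median up leaves fewer peaks, which by itself lowers counts and lengthens distances between neighbours. Any further cause of these shifts was not tested. No paired analysis was possible because each protein and treatment has 1 library, which is also why no value could be set against replicate spread. The difference near the linker ran from 9.71 to 14.4 percentage points over its 5 alternatives.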
